A study of Mus musculus with 36 samples.

Results

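The 40 genes described here are cell cycle and proliferation genes, chosen by name from the 49315 genes of the deposited expression table. Of the 40, 10 act in the replication of DNA in S phase, 24 act in G2 and mitosis, 5 are cyclins and transcription factors, and Cdkn1a encodes an inhibitor of the cyclin-dependent kinases. Of those 5, Ccnd1, Ccne1, Ccne2 and E2f1 act in the passage from G1 to S, and Foxm1 acts on the mitotic genes. All 40 were found in the table, and all 40 passed the filter for testing, which asked for at least 1 TPM in at least 4 of the 36 libraries. In the 12 control (W/W) libraries taken alone, 20 of the 40 reached 1 TPM in at least 4, so the other 20 entered the tests through livers of the mutant groups. These 20 were Foxm1 and all mitotic genes except Aurka, Birc5, Ccnb2, Cdc20 and Kif20a. Counts over the 40 genes, and above all over the mitotic genes, are therefore descriptions.

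The samples were polyA RNA of whole liver from 36 males, 11 to 12 weeks old, in 9 groups of 4 mice each. A knock-in made with CRISPR replaced tryptophan (W) by phenylalanine (F) at residue 441 of LXRalpha, which is a nuclear receptor that responds to oxysterols, and the mice were homozygous controls (W/W), heterozygous (W/F) or homozygous mutants (F/F). In each genotype 1 group was kept on chow. Another group ate a diet that promotes metabolic dysfunction-associated steatohepatitis (MASH) for 4 weeks and was gavaged daily with vehicle for the last 2 weeks, and the remaining group ate the same diet and received the synthetic LXR agonist T0901317 at 10 mg/kg in place of vehicle. These groups are called chow, vehicle and T0901317. The chow mice were a separate cohort, and no gavage is listed for them. Diet, gavage with vehicle and cohort therefore cannot be told apart in any comparison of vehicle with chow. Changes described below as those of the diet include gavage and cohort. In bulk liver RNA, fewer cells of a type and less RNA per cell cannot be told apart either.

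A resting cell that enters the cycle first raises D-type cyclins, whose kinases release the E2F transcription factors from inhibition. E2F factors, together with cyclin E, switch on the genes that make nucleotides and that load and drive the replication helicase. Later in the cycle the factor FOXM1 and the MuvB complexes raise the mitotic genes, whose products condense the chromosomes, build the spindle and, through the anaphase-promoting complex, destroy the B-type cyclins. Hepatocytes of the adult liver mostly rest outside the cycle and can re-enter it after injury or loss of tissue. Cdkn1a, also called p21, is induced by p53 and by other signals and holds the kinases in check.

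Levels are given in TPM, a length-corrected share of all transcripts in a library, which allows levels to be compared between genes. Library depths, worked out from the step between neighbouring low values, ran from 18.1 to 35.8 M reads (M, mega). Hepatocyte markers were abundant throughout, with a summed level of 8 genes of at least 35594 TPM in every library. Fold changes are log2 differences fitted with limma on log2(TPM + 1) and are given with their standard errors (±). Genes with an adjusted p under 0.05 (Benjamini-Hochberg, over the 16638 genes tested) are described as called. The median gene itself moved: on the log2 scale it stood 0.29 higher in F/F than in W/W livers on chow, 0.70 higher with vehicle and 0.43 higher with T0901317. It stood 0.52 higher in W/F than in W/W livers with vehicle. For this reason counts are also given after each library was rescaled to a common median gene.

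The promoters of 7 of the genes, picked by name, are shown as examples of what stands before the start sites of mitotic and replication genes. Not every gene of either set holds the motifs of its examples. No link between motifs and the size of the changes was tested. Each is the 250 bases before the RefSeq start on GRCm38.p6, written 5′ to 3′ along the gene's strand. Capitals mark 3 kinds of motif searched on both strands: the cell cycle homology region (CHR) TTTGAA, the CCAAT box, and an E2F site written as TTTCCCGC, TTTGGCGC, TTTCGCGC or TTTGCCGC. Marked motifs may overlap one another. The first 5 belong to mitotic genes and the last 2 to subunits of the replication helicase.
Mki67 (chr7:135716380-135716629, minus strand): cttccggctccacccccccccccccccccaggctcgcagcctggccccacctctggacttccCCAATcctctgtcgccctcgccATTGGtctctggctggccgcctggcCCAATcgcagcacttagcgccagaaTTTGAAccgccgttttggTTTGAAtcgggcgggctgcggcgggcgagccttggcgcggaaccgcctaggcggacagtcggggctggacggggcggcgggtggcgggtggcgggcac
Top2a (chr11:99024190-99024439, minus strand): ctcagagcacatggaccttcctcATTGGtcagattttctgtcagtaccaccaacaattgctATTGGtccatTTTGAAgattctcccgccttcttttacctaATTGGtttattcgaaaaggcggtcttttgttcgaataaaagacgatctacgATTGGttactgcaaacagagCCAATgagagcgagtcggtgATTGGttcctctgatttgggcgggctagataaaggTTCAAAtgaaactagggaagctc
Ccnb2 (chr9:70421555-70421804, minus strand): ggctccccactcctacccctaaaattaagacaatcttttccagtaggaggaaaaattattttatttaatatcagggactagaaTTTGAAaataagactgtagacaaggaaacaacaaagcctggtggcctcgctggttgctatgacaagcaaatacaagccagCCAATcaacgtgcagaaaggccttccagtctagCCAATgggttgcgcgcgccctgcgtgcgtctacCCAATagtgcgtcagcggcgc
Cdc20 (chr4:118437344-118437593, minus strand): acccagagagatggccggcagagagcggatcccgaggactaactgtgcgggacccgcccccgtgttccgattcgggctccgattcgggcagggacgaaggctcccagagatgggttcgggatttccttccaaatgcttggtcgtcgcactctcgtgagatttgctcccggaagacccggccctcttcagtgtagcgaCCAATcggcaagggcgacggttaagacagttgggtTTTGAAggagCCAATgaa
Cdk1 (chr10:69352913-69353162, minus strand): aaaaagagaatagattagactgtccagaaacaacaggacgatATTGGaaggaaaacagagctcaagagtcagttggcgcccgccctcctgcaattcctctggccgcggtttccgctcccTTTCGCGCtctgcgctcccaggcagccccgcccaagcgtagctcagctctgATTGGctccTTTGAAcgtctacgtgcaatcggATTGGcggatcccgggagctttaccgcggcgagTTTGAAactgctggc
Mcm5 (chr8:75109259-75109508, plus strand): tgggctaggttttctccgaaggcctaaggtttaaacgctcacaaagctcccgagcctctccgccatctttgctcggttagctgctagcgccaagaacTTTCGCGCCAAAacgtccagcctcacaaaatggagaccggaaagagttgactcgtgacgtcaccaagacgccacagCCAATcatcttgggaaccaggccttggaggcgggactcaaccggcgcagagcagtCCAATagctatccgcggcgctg
Mcm6 (chr1:128359706-128359955, minus strand): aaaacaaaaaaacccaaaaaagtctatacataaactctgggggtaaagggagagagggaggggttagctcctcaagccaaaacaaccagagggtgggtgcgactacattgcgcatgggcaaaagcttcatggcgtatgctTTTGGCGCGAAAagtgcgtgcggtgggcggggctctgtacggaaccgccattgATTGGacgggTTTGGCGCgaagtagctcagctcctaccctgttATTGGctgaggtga
Among the 5 mitotic promoters each held a CHR motif and a CCAAT box, and Cdk1 also held an E2F motif. Mcm5 and Mcm6 held E2F motifs and CCAAT boxes but no CHR motif. RefSeq promoters were matched for 32 of the 40 genes and were searched from 250 bases before to 50 bases after the start. Of the 20 matched mitotic genes, 14 held a CHR motif (70.0%), 17 a CCAAT box and 1 an E2F motif (5.0%). Of the 9 matched replication genes, 1 held a CHR motif (11.1%), 8 a CCAAT box and 4 an E2F motif (44.4%). Over all 27025 genes with a promoter the shares were 20.2% for CHR, 41.1% for CCAAT and 2.6% for E2F. Both a CHR motif and a CCAAT box stood in 14 of the 20 mitotic promoters and in 9.0% of all promoters. No motif of the 3 kinds was found in the promoters of Ccne1, E2f1 or Cdkn1a. The RefSeq window searched for E2f1 (chr2:154569377-154569676, minus strand) lies inside the GENCODE gene. The bases before the GENCODE start of E2f1 were therefore not searched.

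Summed over their members, both sets of genes were low in all W/W livers and high in all F/F livers, while W/F livers were high with vehicle alone. The 24 mitotic genes summed to 11.6 to 28.5 TPM in W/W livers on chow, 7.84 to 12.4 TPM with vehicle and 14.0 to 33.0 TPM with T0901317. In F/F livers they summed to 114 to 218 TPM on chow, 129 to 211 TPM with vehicle and 65.2 to 138 TPM with T0901317. W/F sums were 14.9 to 30.7 TPM on chow and 84.9 to 104 TPM with vehicle. With T0901317, 3 W/F livers lay between 9.76 and 12.2 TPM and replicate 2 stood apart at 40.3 TPM. The lowest F/F liver, replicate 3 with T0901317, therefore lay above the highest W/W liver.

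**Figure D1:**
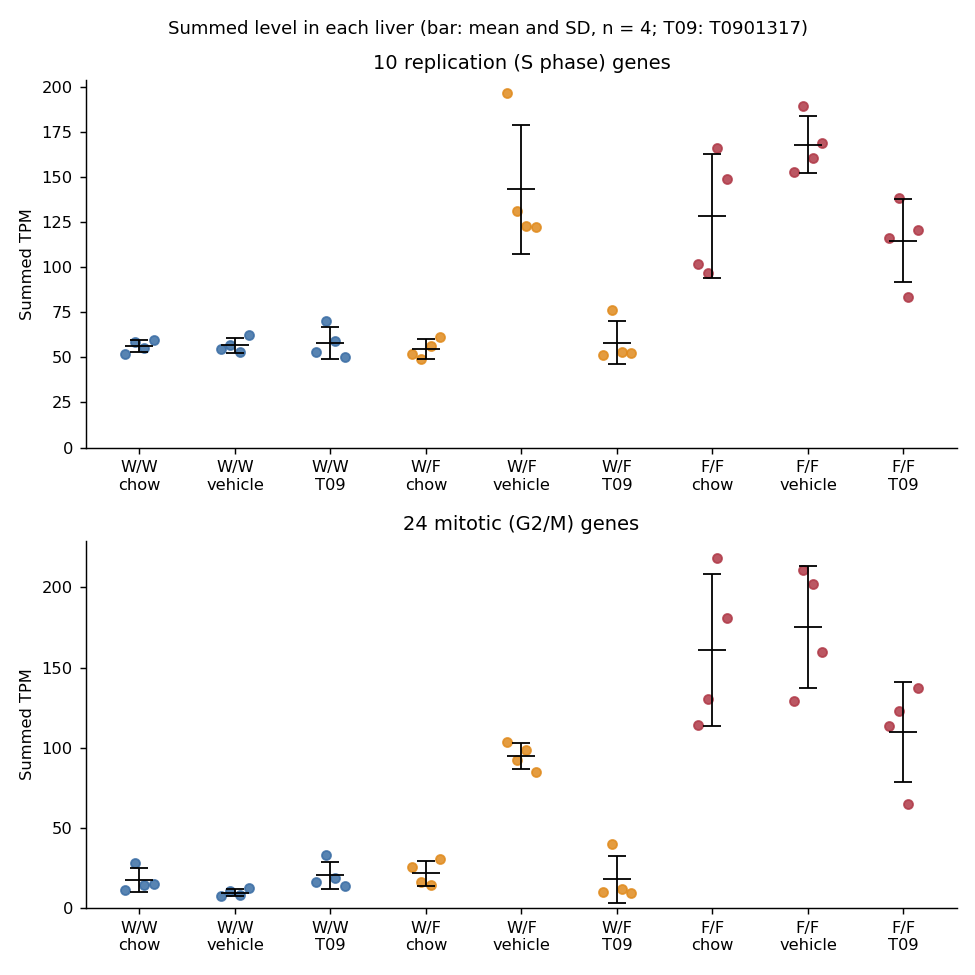
Summed TPM of the 10 replication genes (upper) and of the 24 mitotic genes (lower) in each liver. Each point is 1 mouse, and the bars give the mean and SD of the 4 mice in each of the 9 groups. Mitotic sums of all 12 F/F mice lay at or above 65.2 TPM, and those of all 12 W/W mice at or below 33.0 TPM.

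The 10 replication genes summed to 50.2 to 70.1 TPM over all 12 W/W livers, and to 49.1 to 61.4 TPM in W/F livers on chow. With vehicle, W/F livers reached 122 to 196 TPM, with replicate 1 the highest, and F/F livers 153 to 189 TPM. F/F livers on chow lay between 96.9 and 166 TPM. With T0901317, W/F livers lay between 51.2 and 76.4 TPM and F/F livers between 83.4 and 138 TPM. The replication sum thus had a higher floor in control livers and a smaller span than the mitotic sum.

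Among the replication genes, Pcna encodes the sliding clamp of the DNA polymerases and also serves DNA repair, and it was the most abundant of the 10 (chr2:132249162-132253314, minus strand; gene positions are those of GENCODE M21 on GRCm38). W/W livers held 26.8, 27.8, 26.7 and 31.7 TPM on chow, 28.3, 31.5, 31.3 and 30.1 TPM with vehicle and 27.3, 31.5, 29.6 and 25.9 TPM with T0901317. Heterozygous livers held Pcna at 27.0, 25.8, 28.6 and 30.4 TPM on chow, 71.1, 54.7, 55.9 and 59.6 TPM with vehicle and 29.0, 38.7, 26.3 and 27.9 TPM with T0901317. In the homozygous mutants Pcna stood at 42.5, 35.5, 60.1 and 56.9 TPM on chow, 68.5, 80.7, 69.5 and 75.9 TPM with vehicle and 47.1, 59.9, 37.8 and 54.0 TPM with T0901317. W/W values barely varied, every F/F group lay above its W/W counterpart, and F/F and W/F livers with vehicle overlapped. The log2 fold change of F/F against W/W was 0.74 ± 0.14 (adjusted p = 7.11e-05) on chow and 1.25 ± 0.14 (adjusted p = 1.28e-09) with vehicle. Part of the Pcna exon sequence (19.1% of its 50-base stretches) also occurs in other annotated genes, so its reads are partly ambiguous.

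Mcm7 encodes a subunit of the MCM helicase that unwinds DNA at the fork, and its introns host microRNAs (chr5:138164583-138172422, minus strand). Its level in W/W livers was 6.38, 7.15, 8.84 and 9.41 TPM on chow, 6.74, 7.39, 8.72 and 7.39 TPM with vehicle and 6.54, 9.41, 5.80 and 6.20 TPM with T0901317. For Mcm7 the W/F values were 6.72, 7.40, 10.1 and 9.43 TPM on chow, 21.4, 14.96, 14.0 and 13.7 TPM with vehicle and 6.02, 6.92, 9.20 and 8.38 TPM with T0901317. Mcm7 in F/F livers measured 12.0, 14.0, 18.3 and 18.2 TPM on chow, 16.9, 19.1, 15.8 and 17.8 TPM with vehicle and 16.5, 15.2, 11.7 and 16.3 TPM with T0901317. The highest single value was W/F replicate 1 with vehicle, all F/F livers lay above all W/W livers, and W/F with vehicle overlapped F/F. F/F against W/W with vehicle gave a log2 fold change of 1.11 ± 0.16 (adjusted p = 3.22e-07). Reads of Mcm7 are partly ambiguous too, with 23.3% of its 50-base stretches shared and 12.6% of its exons overlapped by other genes.

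Mcm6, another subunit of the same helicase, had the largest ratio of F/F to W/W group means with vehicle among the replication genes (chr1:128331590-128359664, minus strand). Mcm6 in W/W livers measured 2.33, 3.84, 3.70 and 2.41 TPM on chow, 0.929, 1.58, 0.863 and 1.71 TPM with vehicle and 2.26, 4.43, 3.19 and 2.81 TPM with T0901317. Mcm6 in W/F livers measured 1.95, 2.35, 3.25 and 3.92 TPM on chow, 20.7, 18.3, 13.4 and 11.4 TPM with vehicle and 1.27, 4.15, 1.72 and 1.98 TPM with T0901317. Mcm6 in F/F livers measured 10.7, 10.8, 22.0 and 17.5 TPM on chow, 16.3, 19.3, 15.7 and 19.3 TPM with vehicle and 12.7, 14.6, 8.25 and 10.4 TPM with T0901317. In W/W mice the vehicle livers were the lowest and did not overlap either other group, whereas in W/F mice the vehicle livers were the highest. F/F against W/W gave 1.96 ± 0.24 (adjusted p = 2.23e-07) on chow, 3.05 ± 0.24 (adjusted p = 2.11e-12) with vehicle and 1.58 ± 0.24 (adjusted p = 2.10e-06) with T0901317. In W/W mice Mcm6 fell with the diet, and its log2 fold change was -0.84 ± 0.24 (adjusted p = 0.0186). It was the sole member called in that comparison.

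Rrm2 encodes the small subunit of ribonucleotide reductase, which makes deoxynucleotides (chr12:24708241-24714146, plus strand). Rrm2 in W/W livers measured 6.12, 4.38, 2.82 and 2.39 TPM on chow, 8.75, 6.03, 2.94 and 11.2 TPM with vehicle and 5.46, 7.26, 7.72 and 4.56 TPM with T0901317. Rrm2 in W/F livers was at 6.36, 2.81, 2.17 and 1.81 TPM on chow, 17.1, 5.64, 5.41 and 5.97 TPM with vehicle and 6.16, 8.26, 4.14 and 4.53 TPM with T0901317. In F/F livers Rrm2 was at 8.34, 6.88, 15.7 and 11.5 TPM on chow, 7.51, 16.4, 9.38 and 7.69 TPM with vehicle and 9.22, 11.1, 4.86 and 10.1 TPM with T0901317. Rrm2 varied widely within groups, and F/F livers stood clear of W/W livers on chow but overlapped them with vehicle and with T0901317. The log2 fold change of F/F against W/W was 1.24 ± 0.36 (adjusted p = 0.00588) on chow and 0.50 ± 0.36 (adjusted p = 0.204) with vehicle, where it did not pass the test. Rrm2 was the one member not called in that vehicle comparison.

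The other replication members were 4 more helicase subunits (Mcm2, Mcm3, Mcm4 and Mcm5), the large reductase subunit Rrm1, and Tyms, thymidylate synthase. The 4 Mcm genes lay between 0.631 and 4.70 TPM over the 12 W/W livers, between 4.75 and 20.1 TPM in W/F livers with vehicle, and between 2.91 and 15.2 TPM over the 12 F/F livers. Rrm1 ranged from 1.46 to 2.65 TPM in W/W livers and from 2.76 to 6.73 TPM in F/F livers, without overlap. Tyms ranged from 1.72 to 2.60 TPM in W/W livers and from 2.99 to 5.34 TPM in F/F livers, also without overlap.

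Among the mitotic genes, Cdc20 encodes the activator of the anaphase-promoting complex (chr4:118432901-118437352, minus strand). Its W/W levels were 0.871, 6.28, 0.953 and 1.97 TPM on chow, 0.497, 0.488, 0.593 and 0.999 TPM with vehicle and 1.40, 4.86, 2.16 and 1.48 TPM with T0901317. Cdc20 in W/F livers was at 2.95, 2.02, 1.61 and 3.56 TPM on chow, 11.5, 10.5, 11.3 and 10.2 TPM with vehicle and 0.332, 2.59, 0.985 and 0.458 TPM with T0901317. Cdc20 in F/F livers measured 19.8, 24.6, 33.3 and 31.6 TPM on chow, 14.3, 24.8, 27.3 and 19.1 TPM with vehicle and 15.3, 17.8, 10.7 and 25.0 TPM with T0901317. Replicate 2 on chow was the highest W/W liver, W/F livers with vehicle lay within a narrow band, and F/F livers on chow had the highest mean of the 9 groups. Log2 fold changes of F/F against W/W were 3.22 ± 0.34 (adjusted p = 1.43e-08) on chow and 3.74 ± 0.34 (adjusted p = 3.67e-11) with vehicle. F/F livers with vehicle lay above W/F livers with vehicle without overlap, but that difference did not pass the test (0.88 ± 0.34 (adjusted p = 0.0619)).

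Ccnb2 encodes cyclin B2, a partner of the kinase CDK1 at entry into mitosis (chr9:70407692-70421547, minus strand). In W/W livers Ccnb2 was at 1.79, 1.72, 1.16 and 1.65 TPM on chow, 0.607, 0.661, 0.592 and 1.60 TPM with vehicle and 1.85, 5.79, 2.20 and 1.15 TPM with T0901317. In W/F livers Ccnb2 was at 2.74, 1.23, 1.36 and 4.34 TPM on chow, 13.6, 12.8, 12.8 and 14.0 TPM with vehicle and 0.405, 2.43, 1.20 and 0.621 TPM with T0901317. In F/F livers Ccnb2 was at 15.8, 12.1, 28.8 and 19.9 TPM on chow, 18.2, 29.0, 27.0 and 19.6 TPM with vehicle and 14.6, 20.4, 10.9 and 18.2 TPM with T0901317. The W/F livers with vehicle lay close together and stood far above the W/F livers of both other treatments, and every F/F liver lay above every W/W liver. F/F against W/W gave 2.91 ± 0.30 (adjusted p = 1.30e-08) on chow and 3.72 ± 0.30 (adjusted p = 4.32e-12) with vehicle.

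Aurka encodes Aurora kinase A, which matures the spindle poles, and had the smallest ratio of F/F to W/W group means among the mitotic genes on chow and with vehicle (chr2:172356190-172370535, minus strand). Aurka in W/W livers measured 2.03, 2.29, 3.73 and 2.33 TPM on chow, 2.00, 2.76, 2.43 and 2.25 TPM with vehicle and 2.44, 2.44, 2.26 and 1.61 TPM with T0901317. Aurka in W/F livers measured 2.89, 3.03, 3.57 and 4.74 TPM on chow, 6.97, 5.58, 6.98 and 5.60 TPM with vehicle and 2.27, 3.35, 2.87 and 2.52 TPM with T0901317. Aurka in F/F livers measured 7.47, 9.23, 12.3 and 12.5 TPM on chow, 9.97, 12.6, 13.6 and 9.89 TPM with vehicle and 6.80, 8.37, 4.12 and 8.99 TPM with T0901317. F/F livers on chow and with vehicle both stood above W/F livers with vehicle. The log2 fold change of F/F against W/F with vehicle was 0.77 ± 0.18 (adjusted p = 0.00269).

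Plk1 encodes Polo-like kinase 1, which acts from entry into mitosis to cytokinesis (chr7:122159439-122169873, plus strand). Plk1 in W/W livers measured 0.311, 1.08, 0.436 and 0.574 TPM on chow, 0.516, 0.506, 0.137 and 0.402 TPM with vehicle and 0.993, 2.16, 0.357 and 0.588 TPM with T0901317. Plk1 in W/F livers measured 0.981, 0.429, 0.474 and 0.954 TPM on chow, 6.49, 5.40, 6.24 and 5.42 TPM with vehicle and 0.322, 2.24, 0.837 and 0.346 TPM with T0901317. Plk1 in F/F livers measured 6.88, 6.62, 13.0 and 12.9 TPM on chow, 7.45, 14.7, 12.3 and 10.6 TPM with vehicle and 6.30, 7.96, 3.50 and 11.1 TPM with T0901317. No W/W liver overlapped an F/F liver, and W/F livers with vehicle lay just under the lowest F/F livers on chow. With vehicle, F/F against W/W gave 3.11 ± 0.29 (adjusted p = 4.76e-11).

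Ube2c encodes the ubiquitin-conjugating enzyme of the anaphase-promoting complex (chr2:164769898-164778822, plus strand). Ube2c in W/W livers measured 0.461, 0.811, 0.737 and 0.485 TPM on chow, 0.476, 0.311, 0.387 and 0.340 TPM with vehicle and 1.15, 1.91, 1.16 and 0.462 TPM with T0901317. Ube2c in W/F livers measured 1.66, 0.499, 0.401 and 2.24 TPM on chow, 6.58, 3.71, 5.59 and 5.05 TPM with vehicle and 0.204, 3.01, 0.583 and 0.475 TPM with T0901317. Ube2c in F/F livers measured 4.84, 6.26, 8.95 and 7.47 TPM on chow, 10.1, 11.8, 12.5 and 11.1 TPM with vehicle and 7.58, 7.49, 4.18 and 8.04 TPM with T0901317. With T0901317, W/F replicate 2 was far above its group and F/F replicate 3 far below its own. Among F/F livers the vehicle group lay above both others without overlap. F/F against W/F with vehicle gave 1.00 ± 0.28 (adjusted p = 0.0102). Tnnc2 on the opposite strand overlaps 22.8% of the Ube2c exons, and since the strand setting of the counting is not given in the sources used here, their reads cannot be told apart.

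Cdk1 encodes the kinase that drives entry into mitosis (chr10:69335146-69352938, minus strand). Cdk1 in W/W livers measured 0.572, 1.80, 0.437 and 0.671 TPM on chow, 0.359, 0.735, 0.409 and 0.599 TPM with vehicle and 1.14, 1.51, 0.976 and 0.536 TPM with T0901317. Cdk1 in W/F livers measured 0.974, 0.684, 0.841 and 1.15 TPM on chow, 7.73, 6.01, 5.30 and 5.37 TPM with vehicle and 1.05, 2.65, 0.597 and 0.497 TPM with T0901317. Cdk1 in F/F livers measured 4.75, 5.47, 11.3 and 8.19 TPM on chow, 6.14, 11.5, 8.94 and 9.16 TPM with vehicle and 5.17, 7.89, 3.35 and 6.71 TPM with T0901317. W/F livers with vehicle overlapped F/F livers on chow and with vehicle, and all W/W livers lay lower. Cdk1 fell with T0901317 in W/F livers, where its log2 fold change was -1.77 ± 0.26 (adjusted p = 6.76e-07).

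Mki67 encodes Ki-67, the protein that coats mitotic chromosomes and is the usual histological marker of cycling cells (chr7:135689784-135716361, minus strand). Mki67 in W/W livers measured 0.281, 1.19, 0.517 and 0.303 TPM on chow, 0.113, 0.201, 0.140 and 0.225 TPM with vehicle and 0.506, 1.10, 0.657 and 0.780 TPM with T0901317. Mki67 in W/F livers measured 0.905, 0.551, 0.553 and 1.04 TPM on chow, 4.55, 5.31, 5.14 and 3.30 TPM with vehicle and 0.378, 2.54, 0.161 and 0.312 TPM with T0901317. Mki67 in F/F livers measured 5.22, 6.38, 9.61 and 7.76 TPM on chow, 7.15, 10.1, 10.6 and 6.87 TPM with vehicle and 7.12, 5.14, 3.21 and 5.78 TPM with T0901317. W/W livers with vehicle had the lowest mean of the 9 groups, and W/F replicate 2 with T0901317 stood apart from the other three of its group. F/F against W/W gave 2.40 ± 0.25 (adjusted p = 1.12e-08) on chow, 3.03 ± 0.25 (adjusted p = 4.65e-12) with vehicle and 1.81 ± 0.25 (adjusted p = 3.95e-07) with T0901317. In group means the ratio of F/F to W/W with vehicle was 51.18, the highest among the mitotic genes that had more than 3 reads in some W/W vehicle library.

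The other 17 mitotic members were Ccna2 and Ccnb1 (cyclins), Aurkb and Birc5 (kinase and survivin of the chromosomal passenger complex), Bub1, Bub1b and Ttk (spindle checkpoint), Cenpe and Cenpf (kinetochore), Kif11, Kif20a, Kif23, Tpx2, Nusap1 and Prc1 (spindle and midzone), Top2a (decatenation of DNA) and Melk, a kinase of the same expression group. Bub1, Melk and Ttk had 3 reads or fewer in each W/W vehicle library, the limit of detection used here, which covers counting error only. Against that limit, set at 3 reads per library, the F/F vehicle level was at least 26.15-fold higher for Bub1, at least 28.88-fold higher for Melk and at least 24.77-fold higher for Ttk. Over all 24 mitotic genes, with these 3 at their bound, the median ratio of F/F to W/W group means with vehicle was 24.97, from 4.87 for Aurka upward. Over the 10 replication genes the median ratio was 3.53, from 1.41 for Rrm2 to 13.9 for Mcm6. W/F over W/W with vehicle gave a median of 11.96 for the mitotic genes and of 3.06 for the replication genes. With vehicle, mitotic genes were thus further from the control level than replication genes in both mutant genotypes. The mean mitotic sum of W/W livers was lowest there, at 9.80 TPM against 17.5 TPM on chow and 20.5 TPM with T0901317. Median ratios of F/F to W/W were 9.65 for mitotic and 2.54 for replication genes on chow. With T0901317 they were 5.78 and 2.21.

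**Figure D2:**
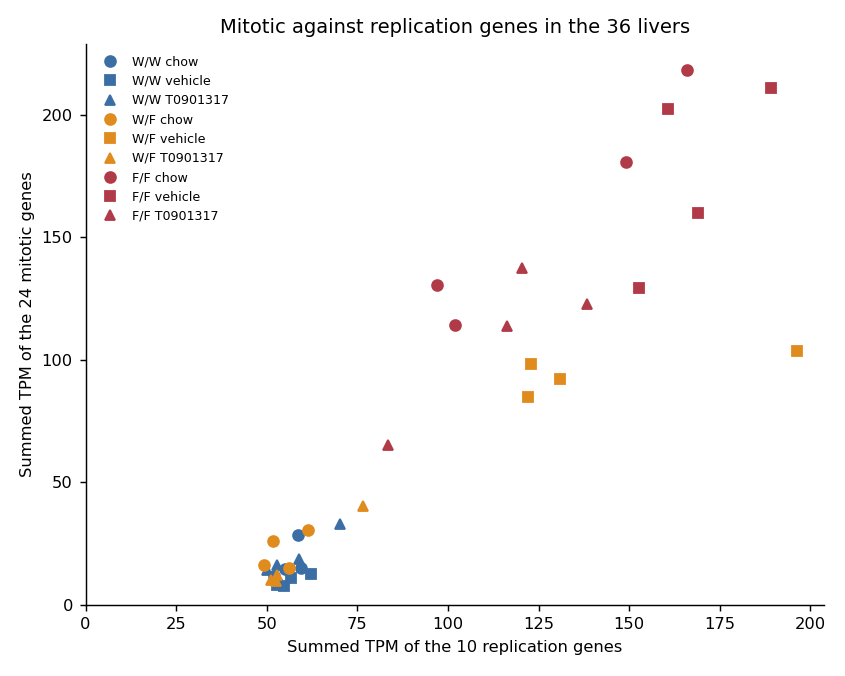
Summed TPM of the 24 mitotic genes (vertical) against that of the 10 replication genes (horizontal) in each of the 36 livers, coloured by genotype and shaped by treatment. W/F livers with vehicle (orange squares) reach replication sums of 122 to 196 TPM with mitotic sums of at most 104 TPM, under those of the F/F livers on chow.

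The 2 sets separated W/F from F/F livers to different degrees. The ratio of the mitotic to the replication sum was 0.529 to 0.801 in W/F livers with vehicle, 0.848 to 1.26 in F/F livers with vehicle and 1.12 to 1.35 in F/F livers on chow. Of the 24 mitotic genes, 24 had a higher group mean in F/F livers on chow than in W/F livers with vehicle (ratios of 1.16 to 2.52). Of the 10 replication genes 4 did (0.68 to 1.32). Pcna makes up much of the replication sum, and without it the ratio of the sums was 0.8289 to 1.47 in W/F livers with vehicle and 1.54 to 2.22 in F/F livers with vehicle. None of these ratios was tested, and the W/F vehicle and F/F chow groups also differ in diet, gavage and cohort.

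Ccnd1 encodes cyclin D1, the first cyclin to rise when a resting hepatocyte enters the cycle, and had the highest mean of the 40 genes over the 36 livers (chr7:144929931-144939925, minus strand). Ccnd1 in W/W livers measured 9.62, 18.0, 6.02 and 11.2 TPM on chow, 3.90, 10.9, 7.51 and 8.84 TPM with vehicle and 42.6, 43.9, 52.6 and 39.4 TPM with T0901317. Ccnd1 in W/F livers measured 17.8, 9.76, 6.40 and 7.15 TPM on chow, 90.8, 83.7, 70.7 and 74.7 TPM with vehicle and 14.0, 26.7, 23.4 and 19.5 TPM with T0901317. Ccnd1 in F/F livers measured 62.0, 37.1, 62.6 and 73.7 TPM on chow, 72.8, 72.1, 78.5 and 75.1 TPM with vehicle and 99.0, 81.9, 88.3 and 66.7 TPM with T0901317. T0901317 went with higher Ccnd1 in W/W livers, lower Ccnd1 in W/F livers and overlapping levels in F/F livers. The log2 fold change of T0901317 against vehicle was 2.44 ± 0.27 (adjusted p = 1.37e-07) in W/W livers, -1.92 ± 0.27 (adjusted p = 4.66e-07) in W/F livers and 0.15 ± 0.27 (adjusted p = 0.68) in F/F livers. The difference of the W/F and W/W responses was -4.36 ± 0.38 (adjusted p = 5.39e-10), and that of the F/F and W/W responses was -2.29 ± 0.38 (adjusted p = 7.66e-05). With T0901317 the W/F livers lay below the W/W livers (-1.09 ± 0.27 (adjusted p = 0.00739)). Overlapping exons of LTO1 on the opposite strand cover 23.4% of the Ccnd1 exons, and reads from the pair cannot be told apart without a strand setting.

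E2f1 encodes the activating E2F factor of the passage into S phase (chr2:154559407-154569892, minus strand). E2f1 in W/W livers measured 2.14, 2.93, 2.73 and 2.67 TPM on chow, 2.22, 3.50, 2.87 and 2.77 TPM with vehicle and 3.28, 4.80, 3.23 and 3.51 TPM with T0901317. E2f1 in W/F livers measured 2.20, 3.63, 2.28 and 2.81 TPM on chow, 12.1, 8.02, 6.93 and 6.97 TPM with vehicle and 2.64, 3.51, 2.51 and 3.17 TPM with T0901317. E2f1 in F/F livers measured 4.90, 4.27, 7.89 and 7.26 TPM on chow, 11.1, 10.04, 9.62 and 9.38 TPM with vehicle and 8.21, 8.23, 6.03 and 5.78 TPM with T0901317. W/W livers stayed low under all treatments, and F/F livers with vehicle lay above F/F livers on chow. In F/F mice the diet gave a log2 fold change of 0.67 ± 0.17 (adjusted p = 0.00102), which remained called after rescaling (0.35).

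Ccne1 encodes cyclin E1, the partner of CDK2 at the start of replication (chr7:38097984-38107534, minus strand). Ccne1 in W/W livers measured 1.13, 1.53, 1.95 and 0.711 TPM on chow, 1.55, 2.36, 1.29 and 0.996 TPM with vehicle and 1.89, 1.75, 1.94 and 1.35 TPM with T0901317. Ccne1 in W/F livers measured 1.85, 1.55, 0.871 and 1.80 TPM on chow, 7.28, 5.08, 4.85 and 3.39 TPM with vehicle and 1.89, 1.33, 2.48 and 2.25 TPM with T0901317. Ccne1 in F/F livers measured 2.29, 2.62, 2.88 and 1.02 TPM on chow, 4.998, 4.32, 3.98 and 4.43 TPM with vehicle and 3.40, 4.32, 3.23 and 2.46 TPM with T0901317. On chow the F/F livers overlapped the W/W livers, unlike the mitotic genes, and with vehicle they did not. F/F against W/W gave 0.44 ± 0.20 (adjusted p = 0.074) on chow, which did not pass, and 1.12 ± 0.20 (adjusted p = 1.27e-05) with vehicle.

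Ccne2 encodes the related cyclin E2 (chr4:11191351-11204779, plus strand). Ccne2 in W/W livers measured 0.931, 1.24, 2.00 and 0.812 TPM on chow, 1.27, 1.45, 1.35 and 1.04 TPM with vehicle and 1.06, 1.18, 1.73 and 1.53 TPM with T0901317. Ccne2 in W/F livers measured 1.95, 1.05, 0.961 and 2.03 TPM on chow, 2.53, 2.05, 1.30 and 1.73 TPM with vehicle and 0.987, 1.14, 0.898 and 1.36 TPM with T0901317. Ccne2 in F/F livers measured 1.93, 1.12, 2.53 and 1.99 TPM on chow, 2.77, 2.70, 3.30 and 2.37 TPM with vehicle and 1.84, 2.77, 1.69 and 1.74 TPM with T0901317. F/F and W/W livers overlapped on chow, W/F and W/W livers overlapped with vehicle, and F/F livers stood above W/W livers with vehicle. That log2 fold change was 0.73 ± 0.17 (adjusted p = 0.000314), and after rescaling it was 0.16 and not called. Ints8 on the opposite strand overlaps 17.4% of its exons.

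Foxm1 encodes the transcription factor of the mitotic programme (chr6:128362967-128376146, plus strand). Foxm1 in W/W livers measured 0.238, 0.687, 0.0952 and 0.165 TPM on chow, 0.323, 0.194, 0.140 and 0.137 TPM with vehicle and 0.253, 0.545, 0.350 and 0.353 TPM with T0901317. Foxm1 in W/F livers measured 0.312, 0.123, 0.0604 and 0.324 TPM on chow, 1.83, 2.02, 1.74 and 1.34 TPM with vehicle and 0.123, 0.857, 0.357 and 0.182 TPM with T0901317. Foxm1 in F/F livers measured 1.80, 1.98, 3.13 and 2.60 TPM on chow, 2.57, 3.40, 2.77 and 2.59 TPM with vehicle and 2.32, 2.23, 1.08 and 2.16 TPM with T0901317. Its order of groups was that of the mitotic genes: F/F above W/W in each treatment, and W/F high with vehicle. Log2 fold changes of F/F against W/W were 1.39 ± 0.16 (adjusted p = 9.31e-08) on chow and 1.68 ± 0.16 (adjusted p = 1.42e-10) with vehicle.

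Cdkn1a, the inhibitor, had its highest group means with vehicle in W/F and F/F mice (chr17:29090976-29100727, plus strand). Cdkn1a in W/W livers measured 1.16, 1.42, 2.16 and 3.60 TPM on chow, 1.62, 2.73, 12.5 and 3.84 TPM with vehicle and 5.27, 15.3, 6.502 and 7.97 TPM with T0901317. Cdkn1a in W/F livers measured 0.970, 1.43, 2.14 and 2.20 TPM on chow, 29.2, 30.8, 38.7 and 60.8 TPM with vehicle and 2.35, 7.74, 3.26 and 1.80 TPM with T0901317. Cdkn1a in F/F livers measured 7.03, 30.3, 34.3 and 36.8 TPM on chow, 38.4, 58.3, 52.3 and 48.1 TPM with vehicle and 20.4, 14.6, 8.25 and 24.0 TPM with T0901317. W/F livers with vehicle stood far above W/F livers on chow, F/F replicate 1 was the lowest F/F liver on chow, and with T0901317 the F/F and W/W livers overlapped. The diet gave a log2 fold change of 3.90 ± 0.45 (adjusted p = 1.17e-08) in W/F livers, of 1.05 ± 0.45 (adjusted p = 0.0487) in F/F livers and of 0.77 ± 0.45 (adjusted p = 0.297) in W/W livers, where it did not pass. T0901317 against vehicle gave -3.18 ± 0.45 (adjusted p = 4.84e-07) in W/F livers and -1.58 ± 0.45 (adjusted p = 0.00849) in F/F livers. Cdkn1a and Ccnd1 parted in F/F livers with T0901317: mean Cdkn1a was 16.8 ± 6.90 TPM against 49.3 ± 8.38 TPM with vehicle (SD, n = 4), while mean Ccnd1 was 84.0 ± 13.5 TPM against 74.6 ± 2.88 TPM.

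**Figure D3:**
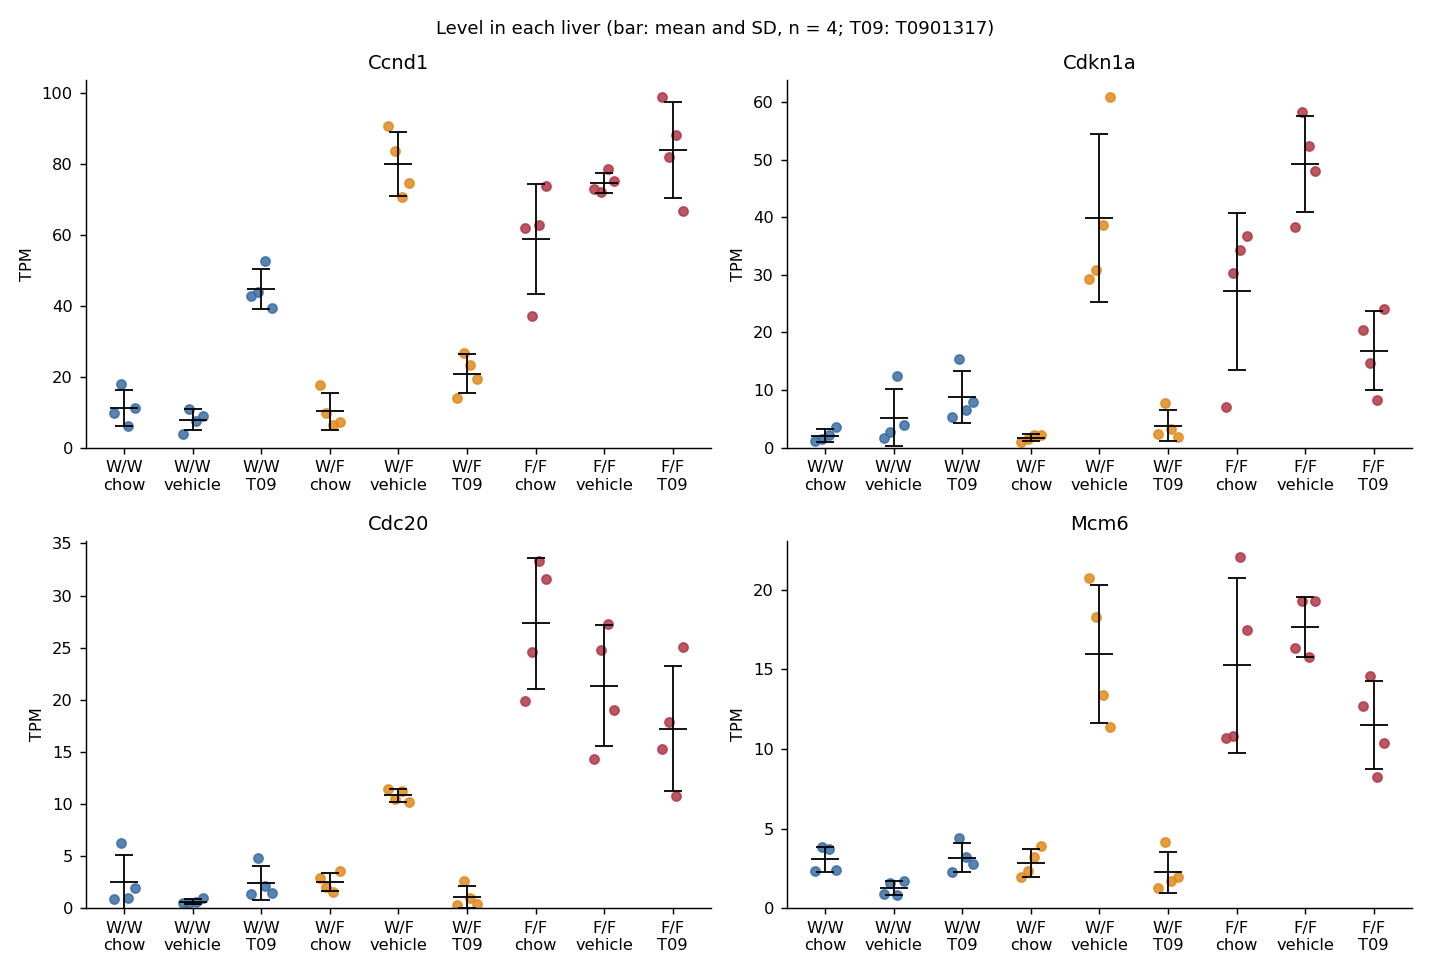
TPM of Ccnd1, Cdkn1a, Cdc20 and Mcm6 in each liver. Each point is 1 mouse, and the bars give the mean and SD of 4 mice. Ccnd1 in W/W livers is highest with T0901317 (39.4 to 52.6 TPM), in W/F livers it is highest with vehicle (70.7 to 90.8 TPM), and Cdkn1a falls with T0901317 in W/F and F/F livers.

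Comparing F/F with W/W livers asks what the homozygous mutation does under each condition. On chow, 38 of the 40 genes were called higher in F/F livers and none lower, where 43.0% of all genes tested were called higher. The exceptions were Ccne1 and Ccne2. All 10 replication genes and all 24 mitotic genes were among the 38, with median log2 fold changes of 1.06 and 1.78. After rescaling 37 were called higher, against 15.9% of all genes. Ccnd1 (2.34 ± 0.27 (adjusted p = 7.59e-08)) and Cdkn1a (3.03 ± 0.45 (adjusted p = 4.41e-06)) were higher as well.

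With vehicle, 39 of the 40 were called higher in F/F than in W/W livers (69.3% of all genes), and 37 after rescaling (31.0%). The median log2 fold change was 1.42 for the replication genes, 2.23 for the mitotic genes and 0.70 for all genes, so the mitotic genes stood well beyond the shift of the median gene. Ccnd1 rose by 3.18 ± 0.27 (adjusted p = 1.03e-11), E2f1 by 1.53 ± 0.17 (adjusted p = 1.49e-09) and Cdkn1a by 3.31 ± 0.45 (adjusted p = 1.08e-07). With T0901317, 37 were called higher (56.3% of all genes), all but Rrm2, Ccne2 and Cdkn1a. After rescaling 30 were called higher (24.2%): 24 of 24 mitotic genes, 5 of 10 replication genes and 1 of the 5 cyclins and transcription factors, Foxm1, so none of the 4 that act from G1 to S. All 24 mitotic genes were therefore called higher in F/F livers in each of the 3 conditions under both scalings. Among the replication genes, cyclins and transcription factors fewer calls were left after rescaling with T0901317. Most mitotic genes entered the tests through the mutant groups and the replication genes did not, so this contrast of counts is a description.

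Comparing W/F with W/W livers asks the same of a single mutant copy. On chow none of the 40 genes was called in either direction (0.198% of all genes were called higher and 0.288% lower), and none had an unadjusted p under 0.05 with limma on log2(TPM + 1) as deposited. The count test on recovered reads (voom) called none either, and none was under 0.05 unadjusted. After rescaling none was called (0.192% of all genes higher, 0.409% lower). With limma 1 member had an unadjusted p under 0.05 after rescaling, and 1 did with a pseudocount of 0.1 TPM. With vehicle 38 were called higher, all but Rrm2 and Ccne2, where 61.6% of all genes were called higher. After rescaling 37 were (27.6%), among them 24 of 24 mitotic genes. Examples are Cdc20 (2.86 ± 0.34 (adjusted p = 1.69e-08)), Mcm6 (2.88 ± 0.24 (adjusted p = 2.20e-11)), Ccnd1 (3.27 ± 0.27 (adjusted p = 1.84e-11)) and Cdkn1a (2.96 ± 0.45 (adjusted p = 1.19e-06)). With T0901317 the single called gene was Ccnd1, which was lower in W/F livers, where 6.23% of all genes were called lower, and 8.28% after rescaling. The count was 3 without W/F replicate 2, the liver that stood apart.

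**Figure D4:**
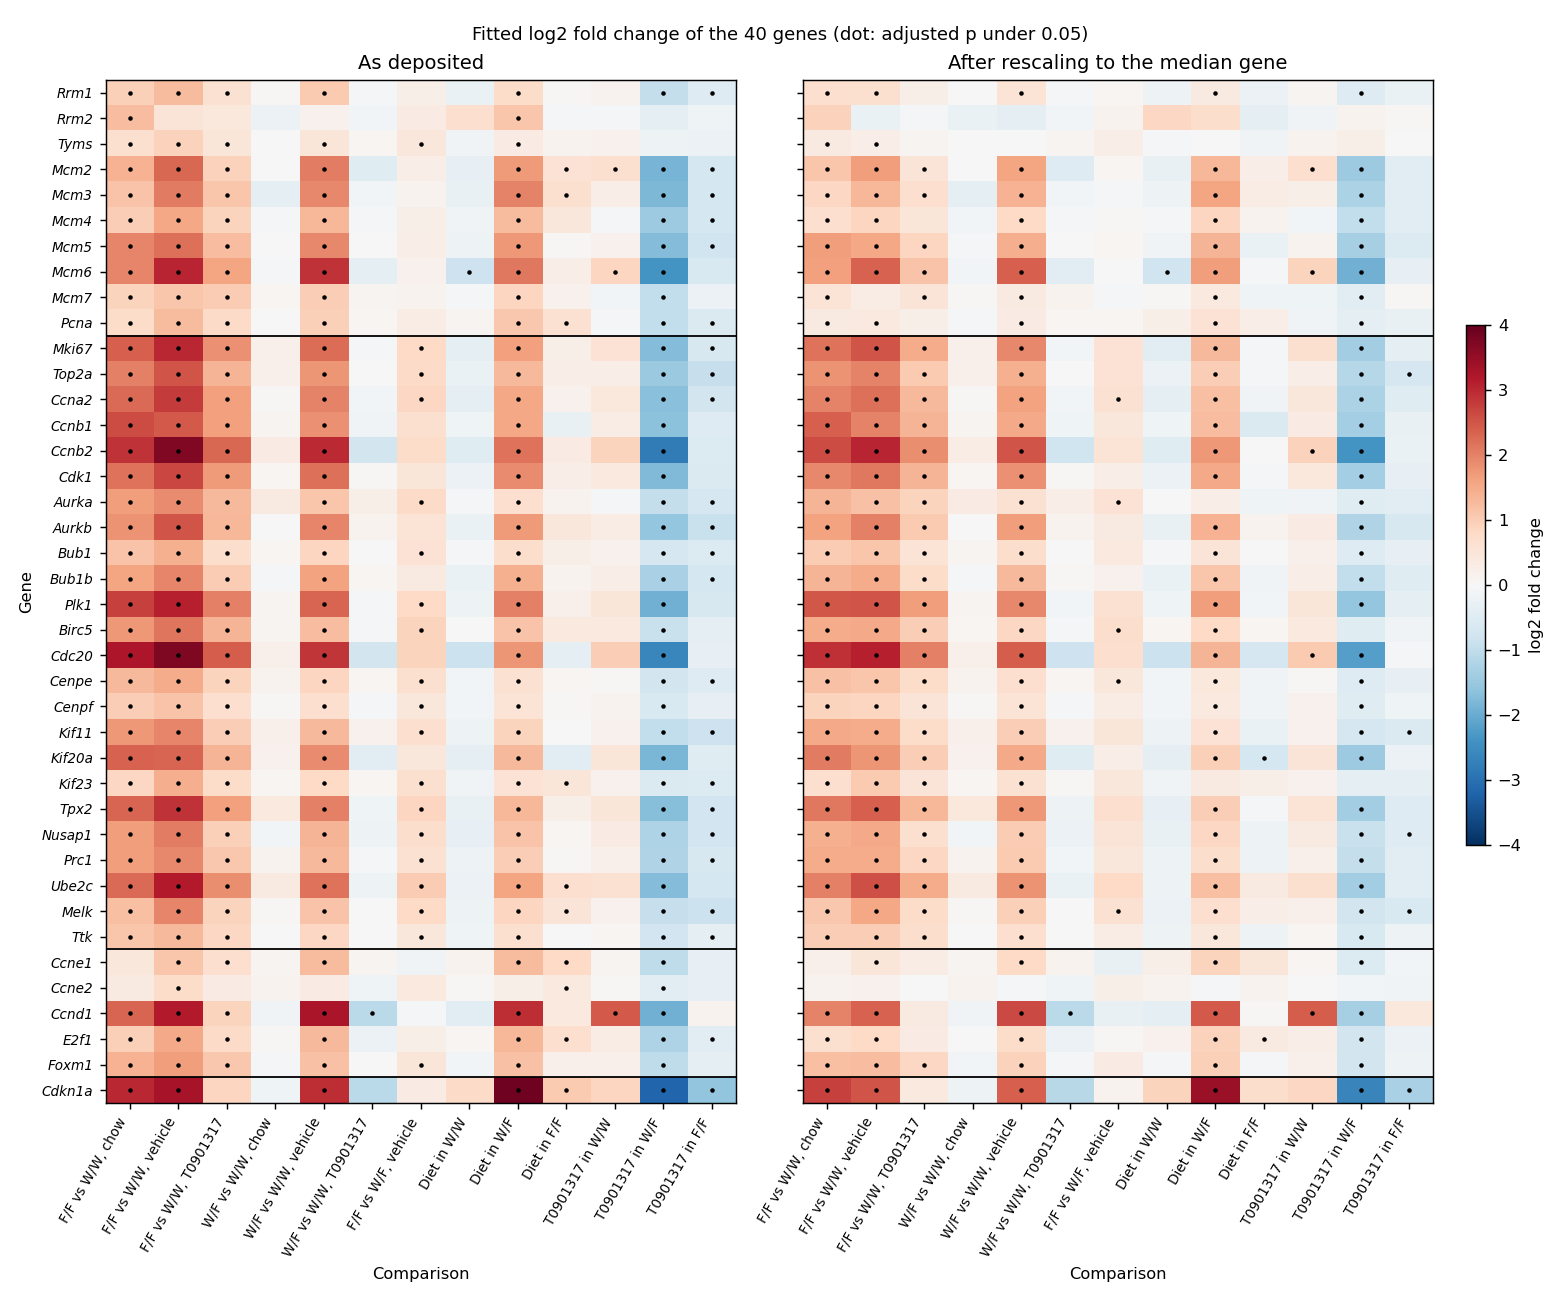
Fitted log2 fold change of each of the 40 genes (rows, with lines between replication genes, mitotic genes, the 5 cyclins and transcription factors and Cdkn1a) in 13 comparisons (columns), as deposited (left) and after rescaling to the median gene (right). Dots mark an adjusted p under 0.05, and colours saturate at 4. Mitotic rows are called in each of the F/F against W/W columns in both panels.

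Comparing F/F with W/F livers asks what the remaining normal copy does. On chow 38 of the 40 were called higher in F/F livers (37.9% of all genes), all but Ccne1 and Ccne2, and 38 after rescaling (16.5%). With T0901317, 39 were called higher (58.5%), and 34 after rescaling (21.5%), again with 24 of 24 mitotic genes. With vehicle the genotypes were closer. There 19 were called higher (19.0% of all genes): 17 of 24 mitotic genes, Tyms alone among the 10 replication genes, and Foxm1. The median log2 difference was 0.69 for the mitotic genes, 0.25 for the replication genes and 0.18 for all genes. After rescaling 5 were called higher (5.74%), all mitotic, and as deposited the count was 10 without W/F replicate 4 and 11 without F/F replicate 2 or 3. Mcm6 (0.17 ± 0.24 (adjusted p = 0.661)), Ccnd1 (-0.09 ± 0.27 (adjusted p = 0.845)) and Cdkn1a (0.34 ± 0.45 (adjusted p = 0.632)) were not called.

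Comparing vehicle with chow asks what the diet did within a genotype, gavage and cohort included. In W/W livers the one call was Mcm6, which fell, where 10.3% of all genes were called lower, and the same held after rescaling (8.44%). That call was lost without W/W replicate 2 or 3 on chow or replicate 1 or 3 with vehicle, and 2 genes were called without replicate 1 on chow. In W/F livers 39 of the 40 rose, all but Ccne2 (52.4% of all genes were called higher), and 35 did after rescaling (27.9%). Cdkn1a and Ccnd1 had the largest log2 fold changes of the 40 genes: Ccnd1 changed by 2.94 ± 0.27 (adjusted p = 1.35e-10). In F/F livers 10 rose (46.5% of all genes), a smaller share than among all genes: Mcm2, Mcm3 and Pcna, Kif23, Ube2c and Melk, Ccne1, Ccne2 and E2f1, and Cdkn1a. After rescaling 2 were called: E2f1 higher and Kif20a lower (log2 fold change -0.71), where 25.7% of all genes were called higher and 21.3% lower. Cdc23 on the opposite strand overlaps 29.3% of the Kif20a exons, so reads of the pair cannot be told apart. As deposited the F/F count was 4 without replicate 1 on chow or replicate 2 with vehicle, 5 without replicate 2 on chow and 6 without replicate 3 with vehicle. Mki67 was 0.24 ± 0.25 (adjusted p = 0.431) and Cdc20 -0.35 ± 0.34 (adjusted p = 0.39) in F/F livers, neither called.

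The diet response itself differed between W/F and W/W mice in 38 of the 40 genes, each more positive in W/F (49.5% of all genes), and in 32 after rescaling (21.0%). Between F/F and W/W mice it differed in 7 genes, each more positive in F/F (41.5% of all genes), in 0 after rescaling (14.5% of all genes were called higher and 12.3% lower), and as deposited in 2 without F/F replicate 1 on chow, 3 without F/F replicate 2 on chow or with vehicle, and 4 without W/W replicate 2 on chow or replicate 1 with vehicle. With limma on rescaled values 2 members had unadjusted p-values under 0.05, and voom on recovered reads called 3. Both comparisons share the W/W livers.

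Comparing T0901317 with vehicle asks what the agonist did. In W/W livers 3 genes rose, Ccnd1, Mcm6 and Mcm2 (7.87% of all genes were called higher), a share of the 40 close to that of all genes. After rescaling 5 were called higher, these and Ccnb2 and Cdc20, where 8.0% of all genes were (1331 of 16638). Mcm6 rose by 0.87 ± 0.24 (adjusted p = 0.0153) and Mcm2 by 0.65 ± 0.21 (adjusted p = 0.0436). Mcm2 was at 1.75, 2.49, 2.05 and 1.59 TPM with T0901317 and at 0.801, 0.830, 0.811 and 1.07 TPM with vehicle, without overlap. The count was 1 without W/W replicate 2 of the T0901317 group, without replicate 1 or 3 of the vehicle group, and in the test on recovered reads.

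W/F livers showed a fall in 38 of the 40, all but Rrm2 and Tyms (59.3% of all genes were called lower), and 35 did after rescaling (27.1%). Median log2 fold changes were -1.39 for the mitotic genes, -1.21 for the replication genes and -0.49 for all genes. The log2 fold change was -2.81 ± 0.30 (adjusted p = 5.39e-09) for Ccnb2, -2.62 ± 0.34 (adjusted p = 1.16e-07) for Cdc20 and -2.41 ± 0.24 (adjusted p = 1.47e-09) for Mcm6. The treated W/F livers other than replicate 2 lay within the range of the W/W livers of all treatments in both sums. Their mitotic sums lay below those of all W/W livers with T0901317, of which the lowest was 14.0 TPM. In replicate 2 the markers of macrophages (367 TPM, against 82.0 to 149 TPM in the other 3) and of T and NK cells (28.3 TPM, against 3.85 to 7.15 TPM) were also the highest of the group. Their part in its higher mitotic sum was not tested.

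In F/F livers 23 of the 40 fell (31.2% of all genes were called lower). The medians were -0.63 for the mitotic genes, -0.59 for the replication genes and -0.24 for all genes. After rescaling 5 were called lower (7.98%): Top2a, Kif11, Nusap1, Melk and Cdkn1a. Without replicate 3, the lowest F/F liver with T0901317, 7 were called lower. Melk changed by -0.85 ± 0.18 (adjusted p = 0.00105), Kif11 by -0.83 ± 0.18 (adjusted p = 0.000961) and Mki67 by -0.64 ± 0.25 (adjusted p = 0.0463). Cdc20 (-0.31 ± 0.34 (adjusted p = 0.486)) and Mcm6 (-0.60 ± 0.24 (adjusted p = 0.052)) were not called.

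Responses to T0901317 were also compared directly. In W/F the response was lower than in W/W in 38 of the 40 genes (53.2% of all genes), and in 32 after rescaling (24.0%). In F/F it was lower than in W/W in 28 (27.2% of all genes), in 12 after rescaling (10.0%) and as deposited in 15 without F/F replicate 3 of the T0901317 group and in 18 without F/F replicate 2 with vehicle or W/W replicate 2 of the T0901317 group. Between F/F and W/F the response differed in 14 genes, each less negative in F/F (17.6% of all genes), and in 11 after rescaling (7.71%). Among these were Ccnd1 (2.07 ± 0.38 (adjusted p = 0.000546)), Cdc20 (2.30 ± 0.48 (adjusted p = 0.00153)), Ccnb2 (2.28 ± 0.43 (adjusted p = 0.000654)) and Mcm6 (1.80 ± 0.34 (adjusted p = 0.000658)). As deposited the count was 25 without W/F replicate 2 and 8 without W/F replicate 1 of the T0901317 group, and 9 without F/F replicate 2 of the T0901317 group or F/F replicate 1 with vehicle. Comparisons that share a genotype share its livers.

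Other genes of the pathway come from lists written for this work. They too could enter the tests through the mutant groups, so counts over them are descriptions. They were counted in F/F against W/W with vehicle. There, 25 of 30 other replication genes were called higher in F/F than in W/W livers and 2 lower (28 tested), and after rescaling 18 and 4. In this comparison 69.3% of all genes were called higher and 7.13% lower, and after rescaling 31.0% and 28.1%. Lig1, DNA ligase 1, changed by 2.61 ± 0.22 (adjusted p = 1.06e-11) and Uhrf1, which maintains DNA methylation, by 2.39 ± 0.28 (adjusted p = 5.58e-09). Mcm10, an initiation factor of the helicase, went the other way (-1.93 ± 0.24 (adjusted p = 1.94e-08)). Gmnn, geminin, an inhibitor of replication licensing, changed by 0.77 ± 0.19 (adjusted p = 0.000593), and by -0.06, no longer called, after rescaling. Of 40 other mitotic genes 35 were called higher (37 tested), and 33 higher and 2 lower after rescaling. Cdkn3, a phosphatase of the cycle kinases, changed by 3.48 ± 0.34 (adjusted p = 1.48e-10) and Tacc3, of the spindle, by 2.62 ± 0.22 (adjusted p = 5.59e-12). Cks2, a kinase subunit, changed by 1.01 ± 0.11 (adjusted p = 3.34e-09) and lost its call after rescaling. Pttg1, securin, changed by 0.14 ± 0.12 (adjusted p = 0.307), which was not called, and after rescaling it was called lower at -0.70. The median log2 fold change was 1.06 for the other replication and 1.67 for the other mitotic genes, against 0.70 for all genes. Their promoters repeated the contrast of the members: a CHR motif stood in 65.7% of 35 matched other mitotic genes and in 8.7% of 23 other replication genes, and an E2F motif in 5.7% and 43.5%.

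Of 17 other G1/S regulators 14 were called higher in that comparison (16 tested), where 69.3% of all genes were, and after rescaling 8 were higher and 2 lower, where 31.0% and 28.1% of all genes were. Their median log2 fold change was 0.91, and 0.16 after rescaling, against 0.70 and 0.03 for all genes. The kinase Cdk4 changed by 1.44 ± 0.11 (adjusted p = 6.83e-13), cyclin D2 (Ccnd2) by 1.72 ± 0.16 (adjusted p = 1.10e-10), Myc by 2.34 ± 0.34 (adjusted p = 3.26e-07) and the repressor E2f4 by 1.07 ± 0.12 (adjusted p = 2.55e-09). Tspan31 on the opposite strand overlaps 19.7% of the Cdk4 exons. Of 6 other inhibitors of the cycle kinases 5 were tested and all 5 were called higher, 4 of them after rescaling. Of these, Cdkn2b stayed under 1 TPM in every W/W library and entered the tests through the mutant groups, so its call is no support. Cdkn2c, p18, changed by 2.43 ± 0.18 (adjusted p = 5.35e-13), Cdkn1c, p57, by 2.46 ± 0.24 (adjusted p = 1.26e-10) and Cdkn1b, p27, by 1.15 ± 0.11 (adjusted p = 9.39e-11). Gm44732 on the opposite strand overlaps 30.7% of the Cdkn1c exons, so its reads and those of Cdk4 are partly ambiguous. Of 16 p53 target genes 14 were called higher, and 9 higher and 2 lower after rescaling, with median log2 fold changes of 0.89 and 0.37. Phlda3 (3.28 ± 0.22 (adjusted p = 8.56e-14)), Pmaip1 (2.24 ± 0.26 (adjusted p = 4.92e-09)) and Bax (1.71 ± 0.14 (adjusted p = 6.61e-12)) were among the 14. Pmaip1 did not reach 1 TPM in 4 W/W libraries and entered the tests through the mutant groups, so its call is no support. The p53 target Eda2r stayed under 1 TPM in every W/W library and entered in the same way, so it is no support either. Nor are Rbl1 and Mybl2 among the other G1/S regulators, which did not reach 1 TPM in 4 W/W libraries. Perp changed by 0.06 ± 0.12 (adjusted p = 0.66), which was not called, and after rescaling it was called lower at -0.80.

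Markers of other cell types were counted in the same comparison, where 69.3% of all genes were called higher and 7.13% lower. Of 8 macrophage markers 6 were called higher and 2 lower, a share close to that of all genes, and the same counts held after rescaling, where 31.0% and 28.1% of all genes were called. All 6 stellate cell markers were called higher (5 after rescaling), as were 5 of 5 bile duct and 6 of 6 neutrophil markers under both scalings. Of the neutrophil markers Ly6g, Camp and Retnlg stayed under 1 TPM in every W/W library and entered the tests through the mutant groups, so their calls are no support. The same holds for the bile duct marker Krt7, which also stayed under 1 TPM in every W/W library. It holds as well for the neutrophil marker Ngp, which did not reach 1 TPM in 4 W/W libraries. Of 8 hepatocyte markers 5 were called lower, and 8 after rescaling. Of 8 T and NK cell markers 6 were tested and 2 were called higher (1 after rescaling), and of 4 B and plasma cell markers 3 were tested and 1 was called higher (1 higher and 1 lower after rescaling). Of 6 endothelial markers 2 were called higher and 2 lower (1 and 4 after rescaling), and of 5 erythroid markers 4 were tested, with 3 called higher and 1 lower (0 and 1 after rescaling). Macrophage markers summed to 121 to 148 TPM in W/W, 712 to 1137 TPM in W/F and 872 to 1123 TPM in F/F livers with vehicle. On chow they summed to 77.7 to 110 TPM in W/W, 52.7 to 107 TPM in W/F and 116 to 188 TPM in F/F livers, and with T0901317 to 117 to 230.0 TPM, 82.0 to 367 TPM and 357 to 533 TPM. F/F livers on chow and with vehicle did not overlap in the macrophage sum, and their mitotic sums overlapped. In its highest library Gpnmb had 37813 reads, and no other macrophage marker passed 6419 reads. The macrophage sum therefore does not weigh the 8 markers equally and does not show the 2 called lower. Its relation to the mitotic sum was not tested.

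**Figure D5:**
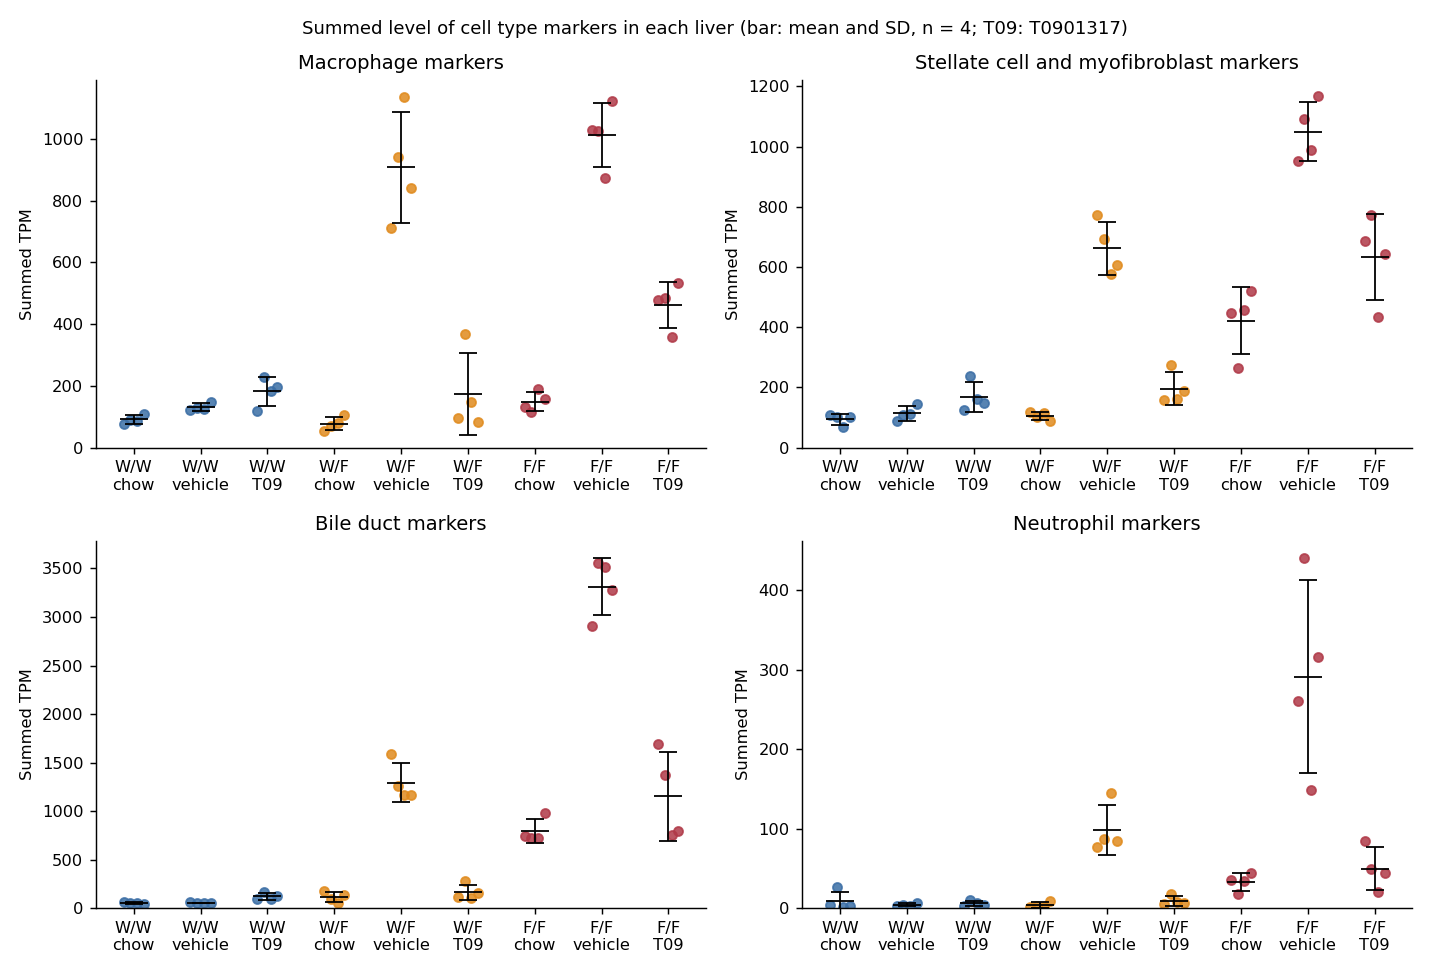
Summed TPM of 8 macrophage, 6 stellate cell and myofibroblast, 5 bile duct and 6 neutrophil markers in each liver. Each point is 1 mouse, and the bars give the mean and SD of 4 mice. Macrophage sums in F/F livers are 116 to 188 TPM on chow and 872 to 1123 TPM with vehicle. Spp1 alone makes up most of the bile duct sum.

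Stellate cell markers summed to 67.4 to 237 TPM over the W/W livers and to 263 to 519 TPM in F/F livers on chow, 952 to 1167 TPM with vehicle and 433 to 772 TPM with T0901317. Stellate sums in W/F livers were 89.0 to 117 TPM, 578 to 772 TPM and 159 to 276 TPM in the same order. Bile duct markers summed to 50.1 to 170 TPM over the W/W livers. In the same order they summed to 720 to 981 TPM, 2908 to 3554 TPM and 756 to 1696 TPM in F/F livers. In W/F livers the bile duct sums were 57.2 to 174 TPM, 1163 to 1590 TPM and 102 to 278 TPM. Spp1 alone made up most of these sums. With vehicle its mean was 3174 TPM of a mean sum of 3312 TPM in F/F livers, and 1243 TPM of 1295 TPM in W/F livers. Neutrophil markers summed to 1.36 to 26.4 TPM over the W/W livers, to 17.7 to 44.2 TPM, 149 to 441 TPM and 20.3 to 85.3 TPM in F/F livers, and to 1.42 to 9.80 TPM, 76.9 to 146 TPM and 4.98 to 18.5 TPM in W/F livers. Of the neutrophil markers Ly6g was at 0 reads in 20 of the 36 libraries. Hepatocyte markers summed to 35594 to 38524 TPM in F/F livers with vehicle and to 70481 to 91534 TPM in W/W livers with vehicle. Endothelial sums did not follow the cycle genes: with vehicle they were 67.2 to 77.6 TPM in W/W, 46.1 to 64.8 TPM in W/F and 65.2 to 104 TPM in F/F livers. Erythroid sums with vehicle were 325 to 353 TPM in W/W, 196 to 401 TPM in W/F and 500.1 to 978 TPM in F/F livers, and on chow 481 to 556 TPM, 387 to 574 TPM and 335 to 540 TPM. T and NK cell markers summed with vehicle to 6.03 to 17.3 TPM in W/W, 13.0 to 19.6 TPM in W/F and 11.9 to 21.0 TPM in F/F livers, which overlapped. B and plasma cell markers summed with vehicle to 3.41 to 7.30 TPM, 3.05 to 6.88 TPM and 7.55 to 24.8 TPM in the same order. The part of these cell types in the levels of the cycle genes was not tested.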

How the data were processed

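PolyA RNA-seq of 36 livers was used as 1 table of TPM, deposited by the authors. Per the submitters' processing notes, the tools were Trimmomatic 0.36, STAR 2.5.2b and featureCounts of Subread 1.5.2, on GRCm38 (mm10). How the authors computed TPM, the annotation and the strand setting are not given in the sources used here.

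The 16638 genes that reached 1 TPM in 4 or more libraries were fitted with limma 3.58.1 (R 4.3.3) on log2(TPM + 1), with the 9 group means and all 36 libraries in 1 model, and 20 contrasts were tested. On this scale the fold changes of low genes are understated. Benjamini-Hochberg adjustment ran over all genes within a contrast, with a threshold of 0.05. The scripts were tested on simulated data. Depth was recovered from TPM steps, and 93.7 to 95.7% of values under 20 reads came out whole within 0.1 read. Rescaling divided each library by its median ratio over 14786 genes.

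The 40 genes and the other lists were chosen with earlier results of these data known. Values in every sample are given for the 4 replication and 6 mitotic genes highest by mean TPM, Mki67, the 5 cyclins and transcription factors and Cdkn1a. Of each other list, the 2 highest by mean TPM and the 2 with the largest called fold change in F/F against W/W with vehicle are named. Other members named were chosen after their values were seen. Nothing in the labels says more of the replicates than that they are separate mice. Alternatives were a pseudocount of 0.1, a filter of 5 TPM, no filter, rescaling, a replicate block, voom on recovered reads, fits of the compared libraries alone, and leaving out each library.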

Additional observations from a re-analysis of the deposited data

Results flagged for a closer look

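Among the 17 genes whose values are given in every sample, 8 of 153 groups of 4 mice held 1 mouse far from the other 3, and chance alone gives about 1 in 20 groups. In W/F livers with vehicle, replicate 1 was the highest for Mcm7 (21.4 TPM) and for Rrm2 (17.1 TPM). In W/W livers with vehicle, replicate 4 was the highest for Ccnb2 (1.60 TPM). In W/F livers with T0901317, replicate 2 was the highest for Ube2c (3.01 TPM) and Mki67 (2.54 TPM), and the same mouse was the highest of its group in macrophage and T and NK cell markers. In F/F livers with T0901317, replicate 3 was the lowest for Ube2c (4.18 TPM) and Foxm1 (1.08 TPM), and replicate 2 stood apart for Ccne2 (2.77 TPM).

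Responses of the genotypes also differed by the test of the difference itself. The response to T0901317 differed in 38 of the 40 genes between W/F and W/W mice (53.2% of all genes in the same direction), in 28 between F/F and W/W mice (27.2%) and in 14 between F/F and W/F mice (17.6%). The response to the diet differed in 38 between W/F and W/W mice (49.5% of all genes) and in 7 between F/F and W/W mice (41.5%), a smaller share than among all genes, and in 0 of the 40 after rescaling. Mcm2, Mcm6 and Ccnd1 rose with T0901317 in W/W livers and fell in W/F livers, and the log2 differences of the responses were -2.51, -3.28 and -4.36. Mcm6 fell with the diet in W/W livers and rose in W/F livers, with a log2 difference of 2.96. Mcm2 rose with T0901317 in W/W livers and fell in F/F livers, with a log2 difference of -1.37. The W/W calls behind these contrasts did not all hold. In W/W livers voom on recovered reads called 1 of the 40 for T0901317 and 0 for the diet. Leaving out single libraries also brought these W/W counts as low as 1 and 0. For Ccnd1 the F/F and W/W responses to T0901317 differed by -2.29 on the log2 scale (F/F minus W/W). Between F/F and W/F mice the log2 difference of the responses was 2.07 for Ccnd1, 2.28 for Ccnb2, 2.30 for Cdc20 and 1.80 for Mcm6.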

How the results depend on the processing

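Of the 20 counts of called members, all 20 stayed within 1.5 times their value with no filter and with the replicate block. With a pseudocount of 0.1 TPM the T0901317 count was 7 in W/W and 11 in F/F livers, the diet count was 2 in W/W and 4 in F/F livers, and F/F against W/F with vehicle gave 3. With a filter of 5 TPM, which tested fewer members, these gave 5 for T0901317 in W/W livers, 6 for the diet in F/F livers and 9 for F/F against W/F with vehicle. After rescaling T0901317 gave 5 in W/W and 5 in F/F livers, the diet 2 in F/F livers, F/F against W/F with vehicle 5, the F/F minus W/W T0901317 response 12 and the F/F minus W/W diet response 0. Voom on recovered reads gave 1 for T0901317 in W/W livers, 0 for the diet in W/W livers (4 unadjusted), 13 for the F/F minus W/W and 26 for the F/F minus W/F T0901317 response, and 3 for the F/F minus W/W diet response. Fitting the compared libraries alone gave 0 for the diet in W/W livers. The causes were not tested. Of 91 single log2 fold changes, 3 changed sign, all after rescaling and with vehicle: Gmnn (-0.059), Pttg1 (-0.70) and Perp (-0.80).

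With each library left out in turn, the T0901317 count ranged from 1 to 3 in W/W, 37 to 39 in W/F and 7 to 28 in F/F livers, and the diet count from 0 to 2, 37 to 39 and 4 to 11. W/F against W/W gave 0 to 0 on chow, 38 to 39 with vehicle and 1 to 3 with T0901317. F/F against W/W gave 38 to 40, 39 to 39 and 37 to 38, and F/F against W/F 38 to 39, 10 to 21 and 37 to 39. The T0901317 response gave 37 to 39 for W/F minus W/W, 15 to 32 for F/F minus W/W and 8 to 25 for F/F minus W/F. The diet response gave 38 to 38 for W/F minus W/W and 2 to 9 for F/F minus W/W.

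Replicate numbers gave no clear pairing of the mice, though a weak one could be missed. Over 144 same-numbered pairs the correlation of deviations ran from -0.174 to 0.297, with 18 above 0.1. Its median was 0.013, against -0.006 for different numbers, and 11 of 36 libraries were closest to their own number. Replicate 1 was the deepest library of its group in W/W and F/F livers on chow and with T0901317. The same held in W/F livers with vehicle, and these libraries had 29.1 to 35.8 M reads. With the replicate block the counts were 3, 38 and 25 for T0901317 in W/W, W/F and F/F livers, 1, 39 and 9 for the diet, 0, 38 and 1 comparing W/F with W/W, 38, 39 and 37 comparing F/F with W/W, and 38, 20 and 39 comparing F/F with W/F. For the responses to T0901317 the block gave 38, 29 and 16, and for those to the diet 38 and 8.

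Depth limits the low members: in W/W livers with vehicle 25 of the 40 had a mean under 1 TPM, and 3 had at most 3 reads in each library.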
